A study of Mus musculus with 4 samples.

Results

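Cytosolic ribosomal protein genes were described in 4 RNA sequencing libraries of a mouse female germline stem cell line, a line with germ cell properties kept in culture. They are the genes whose symbols begin with Rpl or Rps followed by a number, together with Rplp0, Rplp1, Rplp2 and Rpsa, without the Rps6k kinases and without names that mark a pseudogene. The deposited table holds 90 such genes among 53291 features, 32799 of them with a symbol. The labels give strain C57BL/6, more than 20 passages and treatment as control or SPD for 2 libraries each, and the series title reads SPD as spermidine, a polyamine studied as an inducer of autophagy. Profiles were taken at 4 h, at a dose that the labels do not state. Both groups share strain, cell type and passage. The labels do not tie the libraries to separate cultures, and every p-value rests on the spread between libraries alone, which may be technical.

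The ribosome is built from ribosomal RNA and about one protein per gene of this family, which fall into a small subunit, where messenger RNA is decoded, and a large subunit, where peptide bonds are made. Most mammalian ribosomal protein mRNAs begin with a C followed by a run of pyrimidines, the terminal oligopyrimidine tract, through which the kinase mTOR and the RNA-binding protein Larp1 control their translation together. Nearly every cell type makes these mRNAs at high level, and the proteins are needed in matched amounts. Of the 90 genes, 31 encode small subunit proteins and 46 large subunit proteins, the stalk proteins included. The other 13 carry the family's name without being core subunit genes by name: paralogs such as Rpl22l1 and Rpl3l, copies such as Rps27rt, Rpl37rt, Rpl32l, Rps4l and Rps23rg1, the relative Rpl7l1, and Rps19bp1, which encodes a binding partner of Rps19 and not a ribosomal protein. The label therefore fits most of the members and not all of them.

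The deposited libraries differed in depth and content. Control libraries held 7128901 to 7206176 counts and spermidine libraries 787600 to 1718944, and a single row, AY036118, which lies in ribosomal RNA, took 1.64% to 1.68% of control counts and 29.6% to 30.7% of spermidine counts. Counts on 1463 olfactory and vomeronasal receptor genes, which these cells are not known to express, ran at 3.18 per kb of own bases in spermidine replicate 1 and at 0.0634 to 0.176 in the other libraries. Of 10 germline markers 6 had no count in either control and 2 none in either spermidine library, and the helicase gene Ddx4 had 1 count in all. Their summed level was 276 to 291 CPM (counts scaled to library size) in controls and 159 to 339 in spermidine. That sum hides opposite moves. Tex19.1 had 1955 and 1770 control counts against 36 and 25 in spermidine, and Dppa3 had 2 and 3 against 9 and 263. At an adjusted p under 0.05 (edgeR, Benjamini-Hochberg), 3 of 4 tested germline markers were called higher and 1 lower. Over all tested genes, 24.8% were called higher and 3.99% lower. Granulosa and theca markers summed to 134 to 162 CPM in controls and 2335 to 7024 CPM in spermidine, with 7 of 16 at 0 in controls and 5 in spermidine, Amh and Nr5a1 among those at 0 in all 4. Oocyte markers summed to 1.88 to 2.75 CPM in controls and 167 to 2414 CPM in spermidine, with 5 of 13 at 0 in controls and 4 in spermidine, Zp2 and Npm2 in all 4. Haematopoietic markers summed to 1942 to 2630 CPM in controls and 417 to 611 CPM in spermidine, with 4 of 18 at 0 in each group, Spi1, Lyl1 and Laptm5 among those at 0 in all 4. Some of these zeros cannot be read as absence, since Amh and Lyl1 have no bases of their own in the table and Nr5a1 has 30. Within the haematopoietic list 5 of 8 tested markers were called lower and 2 higher. The globin gene Hba-a1 had 20 and 28 control counts against 63 and 554 in spermidine, and Hbb-bt 0 and 6 against 1 and 37. Surface epithelium markers summed to 0.435 to 0.868 CPM in controls and 119 to 280 CPM in spermidine, with 2 of 8 at 0 in controls and 1 in spermidine, and endothelium markers to 0.579 to 1.45 CPM and 106 to 117 CPM, with 6 of 8 and 4 at 0. Stroma markers summed to 6351 to 6744 CPM in controls, 3743 in spermidine replicate 1 and 12470 in spermidine replicate 2, with none of 10 and 1 at 0. Vim made up most of the stroma sum in controls, with 43295 and 45353 counts against 1424 and 2061 in spermidine. Col1a1 had 155 and 430 against 548 and 3401, and Col3a1 135 and 129 against 586 and 6477. Of 9 tested stroma markers 5 were called higher and 1 lower. Depth, the AY036118 share and these marker sums move with the groups or with 1 library, and their part in the results below was not tested.

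Promoter stretches are shown for the 6 tested genes with the largest fitted change that have an entry in the RefSeq promoter table (GRCm38.p6), and for Rps27, the copied parent of Rps27rt, and Rps6, a gene with a pyrimidine tract at its start, which were added after their values were seen. Each runs on the gene's strand from 60 bases before the annotated start through the first 20 bases after it, and in each case the annotated start equals that of the deposited row. Capitals mark CTTTC or CTTTT, letters found in pyrimidine tracts, and GGAAGT or its reverse complement ACTTCC, letters found in sites of the ETS factor family.
Rps2 (chr17:24720003-24720082, plus strand): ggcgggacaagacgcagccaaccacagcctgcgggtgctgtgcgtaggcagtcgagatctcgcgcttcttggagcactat
Rpl26 (chr11:68901506-68901585, plus strand): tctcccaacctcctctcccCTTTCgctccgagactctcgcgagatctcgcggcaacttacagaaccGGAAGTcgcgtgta
Rps19bp1 (chr15:80264287-80264366, minus strand): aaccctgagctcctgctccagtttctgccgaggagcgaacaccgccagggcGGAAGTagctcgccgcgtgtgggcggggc
Rpl18 (chr7:45718011-45718090, plus strand): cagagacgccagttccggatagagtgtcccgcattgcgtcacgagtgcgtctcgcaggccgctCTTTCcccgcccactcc
Rps15 (chr10:80292371-80292450, plus strand): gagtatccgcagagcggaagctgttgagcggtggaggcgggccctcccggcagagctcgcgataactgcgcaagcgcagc
Rps27rt (chr9:114982720-114982799, minus strand): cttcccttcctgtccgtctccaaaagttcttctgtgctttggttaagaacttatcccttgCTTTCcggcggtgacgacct
Rps27 (chr3:90213629-90213708, minus strand): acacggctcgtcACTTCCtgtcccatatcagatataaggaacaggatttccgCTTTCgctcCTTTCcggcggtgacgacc
Rps6 (chr4:86857348-86857427, minus strand): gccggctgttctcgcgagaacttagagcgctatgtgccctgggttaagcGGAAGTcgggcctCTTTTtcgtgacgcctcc

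The promoter table held 69 of the 90 genes. CTTTC or CTTTT on the gene's strand within 20 bases on either side of the annotated start was present in 25 of them (36.2%), against 10.9% of all 27025 genes with an entry. GGAAGT or ACTTCC, that is on either strand, was present anywhere in the 300-base window of 32 (46.4%), against 26.5% of all genes. Neither motif contains the other. A match is a description of letters and not a bound site, and a missing match says only that these letters are not in this window. The stretches of Rps27 and Rps27rt share a run of 19 bases that begins with CTTTC beside the annotated start, and the transcripts matched at 100% over 341 aligned bases in GENCODE sequences. Reads of these genes can therefore be split between them, and both values are uncertain.

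Whether a ribosomal protein gene had counts went with the number of bases that no other row of the table covers, called own bases here. The counting rule is not stated, and it is an inference from the counts that reads overlapping several rows were left out. In total 49 genes had at least 1000 counts in each control, and all 49 had a single transcript row and 390 to 5136 own bases. None of the 26 genes with several rows did. Their median was 196 own bases, and their highest control count was 315, for Rpl3, a large subunit protein near the peptidyl transferase centre, which has 250. Own bases were under 300 for 26 genes, of which 4 passed the low-count filter, and 5 genes had none: Rpl28, Rps10, Rps21, Rps24 and Rps9. Core genes were therefore out of view whatever their level, among them Rps19, with 15 own bases and no count, Rpl5 with 8 own bases, and Rps27a, which encodes a ubiquitin fusion and has 95.

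**Figure D1:**
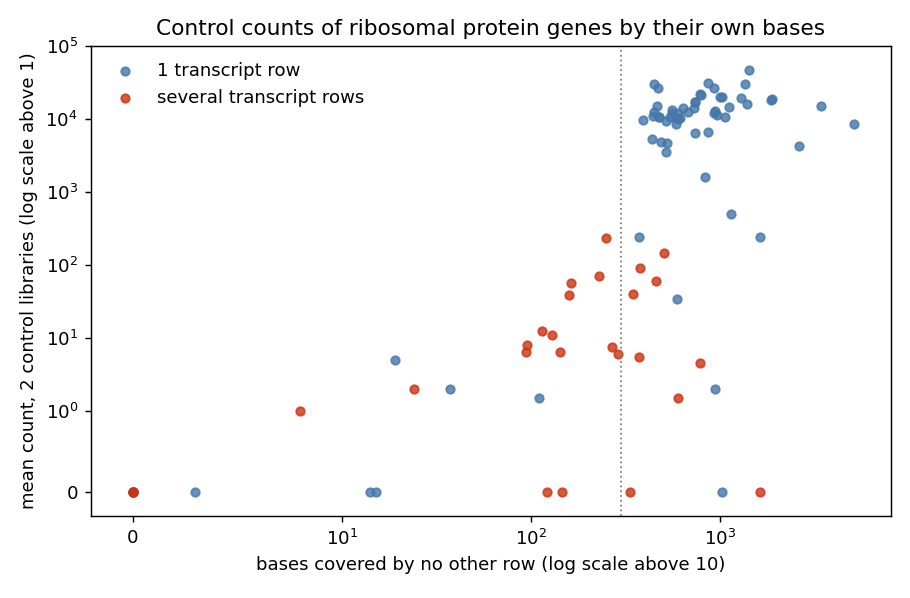
Mean count in the 2 control libraries (vertical, log scale above 1) against own bases (horizontal, log scale above 10) for each of the 90 genes, with the dotted line at 300 own bases. All 49 genes with at least 1000 counts in each control have 1 row and at least 390 own bases, 5 other genes with 1 row and such lengths lie lower (Rpl15, Rps23rg1, Rpl10l, Rps4l and Rpl32l), and no gene with several rows exceeds 315 counts in a control.

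Overlap came from several sources. Genes with several rows shared exon bases between their own transcript models, and Rpl5 and Rps27a also shared bases with the neighbouring genes Dipk1a and Clhc1. The 9 genes with 1 row and under 300 own bases each shared bases with a predicted row that matched no symbol, and those 10 predicted rows held no more than 540 counts in any library. The other 6 single-row genes below 1000 control counts were the copies Rps27rt, Rps4l, Rps23rg1 and Rpl32l, the testis-type paralog Rpl10l and Rpl15, a large subunit protein with 421 to 579 control counts over 1137 own bases. Of the 90 genes, 61 were tested, and 10 had no count in any library. Rps4l, a copy of the X-linked Rps4x, was not tested and had 4 and 0 counts in controls, 1 in spermidine replicate 1 and 134 in spermidine replicate 2.

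Counts of all 90 genes together made up 10.7% of control replicate 1 (95% exact Clopper-Pearson interval 10.7 to 10.8), 9.1% of control replicate 2 (9.07 to 9.12), 3.51% of spermidine replicate 1 (3.47 to 3.55) and 8.3% of spermidine replicate 2 (8.26 to 8.34). Intervals and floors here cover counting error only. As a share of protein-coding counts, which leaves AY036118 out, the values were 11.9% and 9.92% in controls and 6.7% and 13.3% in spermidine. Spermidine replicate 1 was thus below both controls on either measure, whereas spermidine replicate 2 was below both on the first and above both on the second. In bulk libraries, fewer cells of a type and less RNA per cell cannot be told apart. Small subunit counts over large subunit counts gave ratios of 0.627 and 0.597 in controls, 0.638 in spermidine replicate 1 and 0.73 in spermidine replicate 2.

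**Figure D2:**
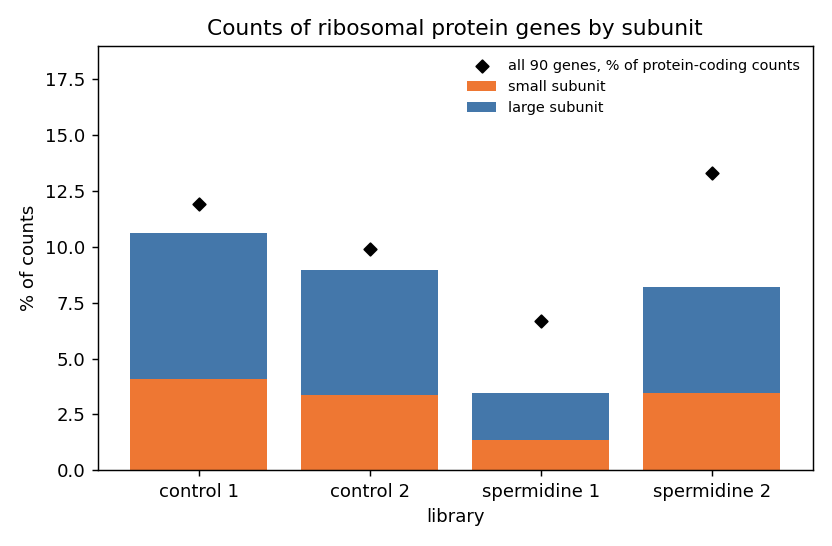
Percent of all counts on small and large subunit genes (stacked bars) in each library, and percent of protein-coding counts on all 90 genes (diamonds). Spermidine replicate 1 is lowest on both measures, with 1.34% for the small and 2.1% for the large subunit and a diamond at 6.7%, and the diamond of spermidine replicate 2 is the highest at 13.3%.

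Gene by gene, the spermidine libraries also disagreed with each other. With levels in CPM scaled by TMM, edgeR's trimmed mean of M-values, spermidine replicate 1 lay below both controls for 57 of 61 tested genes (93.4%), against 41.1% of all tested genes. Spermidine replicate 2 lay below both controls for 25 (41%, against 45% of all), above both for 19 and between them for 17. Of the 61 genes, 49 had a mean of at least 100 CPM over all libraries. Their median difference from the control mean was -1.73 on the log2(CPM + 0.5) scale in spermidine replicate 1 and 0.05 in spermidine replicate 2. For all 1617 genes with at least that mean, which are not matched to the family in level, the same medians were -1.38 and -0.57. Both spermidine libraries lay below both controls for 22 of 61 (36.1%), against 29.6% of all 7836 tested genes, and above both for 1 (1.64%), against 36.6%.

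**Figure D3:**
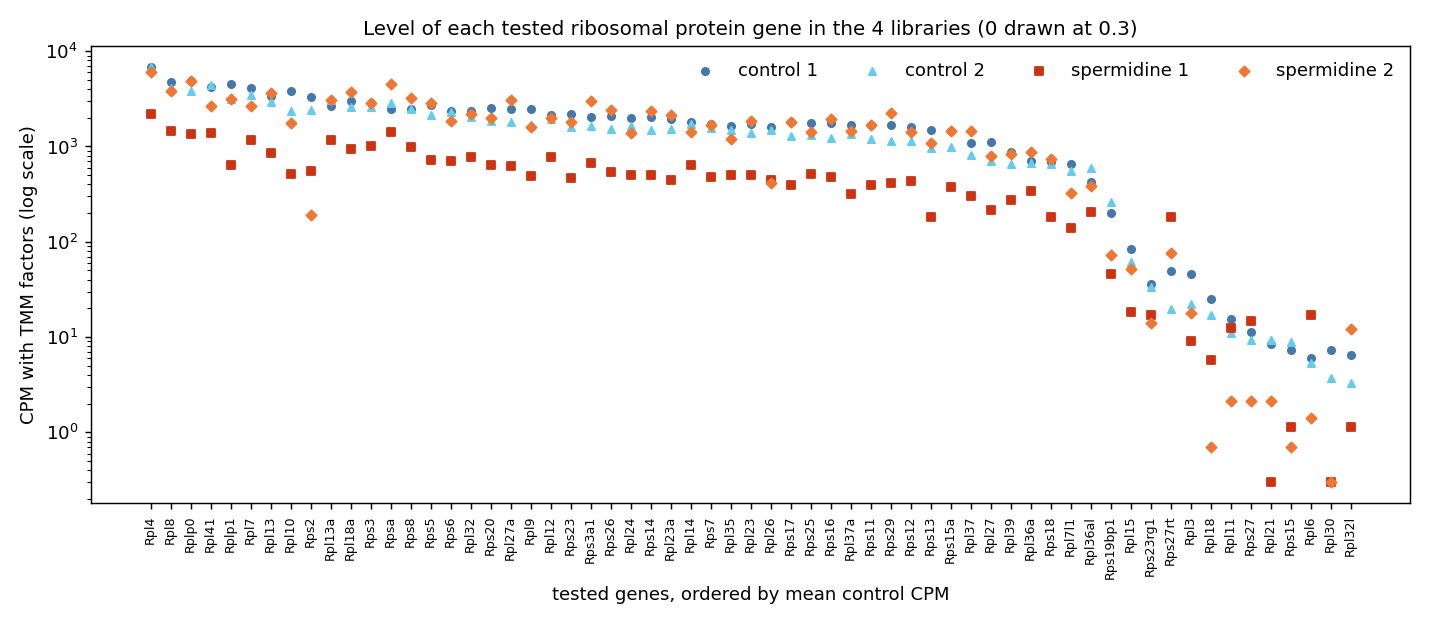
CPM (log scale, values of 0 drawn at 0.3) of the 61 tested genes in each library, ordered by mean control CPM. Red squares of spermidine replicate 1 lie below the controls for 57 genes. Orange diamonds of spermidine replicate 2 lie below both controls for 25 genes, Rps2 and Rpl26 among them, above both for 19 and between them for 17.

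Over all 7836 tested genes, the quasi-likelihood test of edgeR with Benjamini-Hochberg adjusted p-values called 28.8% in either direction, 24.8% higher and 3.99% lower. Of the 61 ribosomal protein genes 3 fell (4.92%), close to the background of falls, and none rose. At an unadjusted p under 0.05 there were 8 lower and 1 higher of 61, against 3113 of all 7836 tested genes in either direction. DESeq2 called 1 higher and 3 lower, against 2194 of all 7836 genes in either direction. Limma-voom called 0 higher and 4 lower, against 1954. The median log2 fold change of the tested members was -0.59, with an interquartile range from -0.99 to -0.42, against 0.23 for all tested genes, and 58 of 61 lay below that median. It was -0.59 as well with genes of 0 to 3 counts in a group set to a floor of 3 counts. Without spermidine replicate 2 the median was -1.69, against 0.40 for all genes. Without spermidine replicate 1 it was -0.08, against 0.00 for all genes. The median was -0.45 without control replicate 1, against 0.30 for all genes, and -0.72 without control replicate 2, against 0.35. With all libraries thinned to equal depth without AY036118 the median was 0.02, against 0.21 for all genes. None of the 55 members tested there was called (4 at an unadjusted p under 0.05), against 811 of all 4085 genes (1252).

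**Figure D4:**
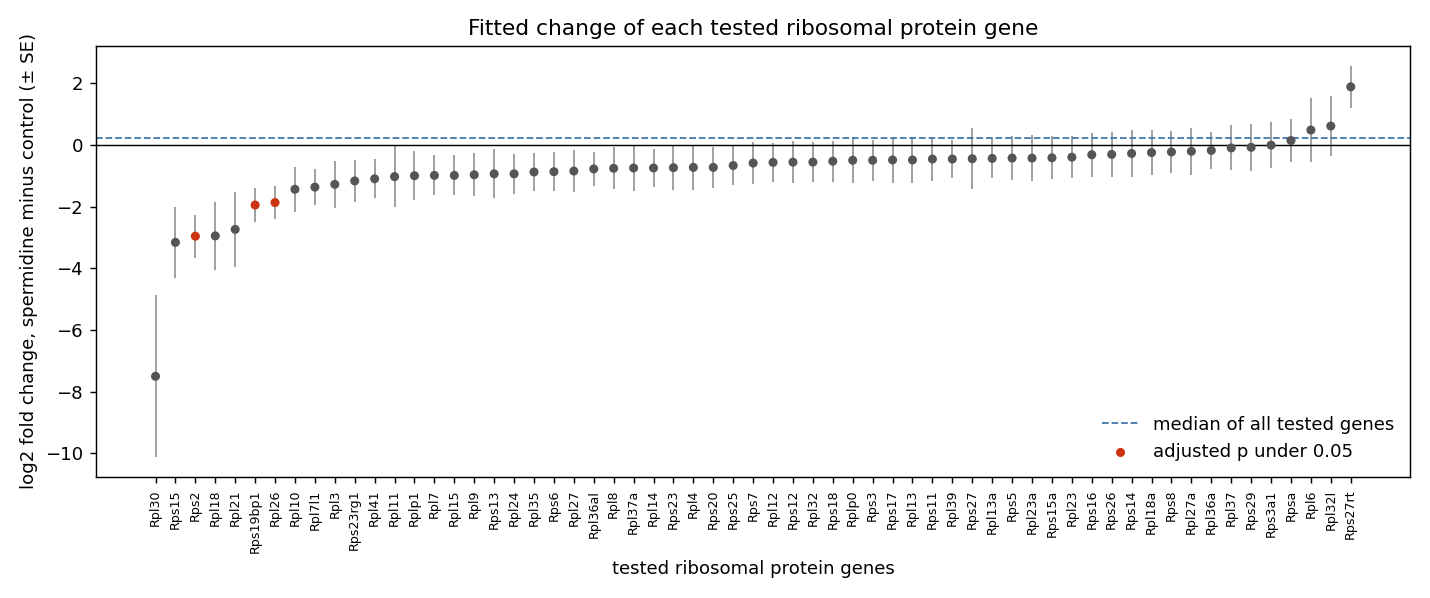
Fitted log2 fold change, spermidine minus control, with its SE for the 61 tested genes. The 3 red points (Rps2, Rps19bp1, Rpl26) passed an adjusted p of 0.05, the dashed line is the median of all tested genes at 0.23, and the point of Rpl30, with no spermidine count, depends on the fit's prior count.

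Rps2, a small subunit protein near the channel where messenger RNA enters, had the lowest adjusted p of the family. It had 3335 and 2438 CPM in controls, 553 CPM in spermidine replicate 1 and 192 CPM in spermidine replicate 2, from 23012, 16848, 484 and 270 counts. Both spermidine libraries lay far below both controls, and in contrast to most of the family the second was lower than the first. The gene lies on chromosome 17 from 24720063 to 24721927 (plus strand, GRCm38), and all of its 999 exonic bases are its own. Its log2 fold change was -2.96 ± 0.70 SE (adjusted p = 0.0132, edgeR, Benjamini-Hochberg). In 16 alternatives it kept its direction in all, with values from -3.91 to -2.06 and adjusted p from 0.00015 to 0.269, and it was called in 10. Rps2 has many processed copies in the mouse genome, and reads that fit several places are a source of uncertainty that was not tested.

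Rpl26, a large subunit protein near the exit of the peptide tunnel, had 1619 and 1498 CPM in controls and 445 and 410 CPM in spermidine, so the groups stood apart and the replicates of each were close. It lies on chromosome 11 from 68901566 to 68904534 (plus strand, GRCm38), with 543 own bases. It fell by 1.87 on the log2 scale (SE 0.54, adjusted p = 0.0295, edgeR, Benjamini-Hochberg), and was called in 9 of 16 alternatives, with values from -2.36 to -1.02 and adjusted p from 0.00528 to 0.319. Rps19bp1, on chromosome 15 from 80260614 to 80264306 (minus strand, GRCm38), had 201 and 261 CPM in controls and 45.7 and 72.6 CPM in spermidine. It fell by 1.95 (SE 0.55, adjusted p = 0.0285, edgeR, Benjamini-Hochberg), and was called in 9 of 16 alternatives, with values from -2.38 to -1.28 and adjusted p from 0.00292 to 0.31. At equal depth without AY036118 none of the 3 was called, with Rps2 at -2.06, Rpl26 at -1.02 and Rps19bp1 at -1.28. Each of the 3 calls was lost when either control or spermidine replicate 1 was left out, and held when spermidine replicate 2 was left out. As Rps19bp1 encodes no subunit, the calls among core genes number 1 in each subunit.

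The share of each gene within the family's counts needs no scaling between libraries. Among the 49 abundant genes, Rps2 took 2.98% and 2.6% of the family's counts in controls, 1.77% in spermidine replicate 1 and 0.19% in spermidine replicate 2. Against the control mean these last values are -0.66 and -3.88 on the log2 scale. Rpl26 held 1.45% and 1.6% in controls, 1.42% in spermidine replicate 1 and 0.405% in spermidine replicate 2, so that its share was close to the controls in the first and lower in the second. Rps19bp1 was lower within the family in both spermidine libraries, with 0.146% and 0.0717% against 0.18% and 0.279%. Rpl10, which was not called, was also lower in both, with 1.65% and 1.74% against 3.45% and 2.5%, or -0.83 and -0.76 on the log2 scale.

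The remaining genes kept their proportions more closely. In spermidine replicate 1, 41 of 49 genes were within 0.5 log2 units of their mean control share, and in spermidine replicate 2, 38 were. The SD over genes of the log2 share difference was 0.261 between controls and 0.683 between spermidine libraries, and the latter was 0.437 without Rps2 and Rpl26. For comparison, the SD over all 1617 genes with a mean of at least 100 CPM was 0.611 between controls and 1.04 between spermidine libraries, in log2 CPM. Those genes share that minimum only and are not matched to the family in level. Rpsa, which encodes a small subunit protein also known as the laminin receptor, had the largest gain in share, with 2.22% and 3.04% in controls against 4.51% and 4.42%. Its CPM was 2487 and 2849 in controls, 1411 in spermidine replicate 1 and 4476 in spermidine replicate 2, and its fitted change was 0.14 ± 0.69, with groups that overlapped. Rps13, a small subunit protein, had a share 1.02 log2 units under the control mean in spermidine replicate 1 (written as -1.02) and close to it in spermidine replicate 2 (-0.12).

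**Figure D5:**
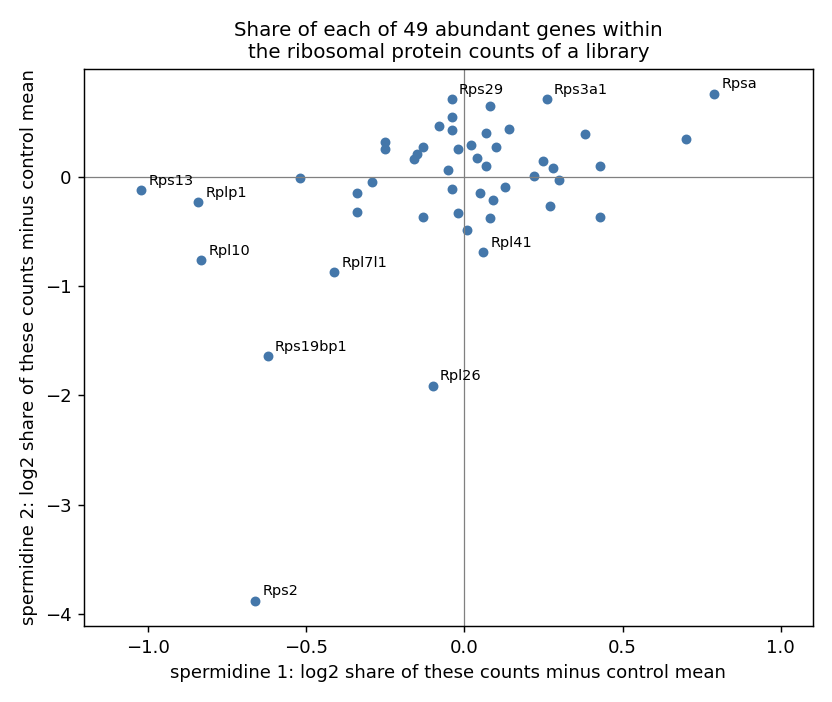
Log2 share of each of 49 abundant genes within the family's counts, minus its mean in controls, in spermidine replicate 1 (horizontal) and spermidine replicate 2 (vertical). Most points lie within 0.5 of 0 on each axis, Rps2 stands at -0.66 and -3.88, and Rpl26 and Rps19bp1 are low in spermidine replicate 2.

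Per length, the family spanned a wide range in every library. The 49 abundant genes ran from 242 to 9698 CPM per kb of own bases in control replicate 1, with a median of 2907, and the medians were 2305 in control replicate 2, 744 in spermidine replicate 1 and 2743 in spermidine replicate 2. The lowest in control replicate 1 were Rps19bp1 (242) and Rpl7l1 (253), which are not core genes. Next came the core gene Rps15a (283), whose value is divided by 5136 own bases. Rpl41, the smallest protein of the large subunit, had the highest mean, with 9270 and 9949 CPM per kb in controls and 3071 and 5912 in spermidine. Rplp1, an acidic protein of the stalk that recruits translation factors, followed with 9698 and 6670 in controls and 1371 and 6803 in spermidine. The values of these genes overlap between libraries, so their order is not fixed. Rpl8, Rpl32, Rpl4 and Rps26 came next, with means of 4117, 3978, 3858 and 3668 CPM per kb that lie within each other's range over libraries.

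None of these highly expressed genes was called. For Rpl41 the fitted value was -1.10 ± 0.63 (adjusted p = 0.23, edgeR, Benjamini-Hochberg), and for Rplp1 the adjusted p was 0.383 by that edgeR test. The values of Rpl4, Rpl8, Rpl32 and Rps26 ran from -0.76 to -0.31. Rplp0, the anchor of the stalk and a common reference gene in quantitative PCR, had 4908 and 3831 CPM in controls, 1365 in spermidine replicate 1 and 4819 in spermidine replicate 2. That is a fitted value of -0.50 ± 0.74, with spermidine replicate 2 between the controls. Rps6, the small subunit protein that S6 kinases phosphorylate, had 2377 and 2305 CPM in controls and 707 and 1845 in spermidine, with groups that did not overlap and -0.87 ± 0.64 (adjusted p = 0.34, edgeR, Benjamini-Hochberg). By subunit, small subunit genes had a median log2 fold change of -0.49 over 23 tested genes and large subunit genes -0.75 over 32, and the difference was not tested.

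Several genes with few counts had large fitted falls with wide errors. Rpl30, Rps15, Rpl18 and Rpl21 have several rows each and 158 to 507 own bases, and it was their control counts alone that took them past the low-count filter. Rpl30, a large subunit protein, had 51 and 26 control counts and none in spermidine, at least 4.24-fold lower against a floor of 3 counts over the group. The small subunit gene Rps15 had 51 and 61 counts in controls and 1 in each spermidine library, and control over spermidine was 9.26 (95% counting interval 2.5 to 77.4). For Rpl21 the counts were 58 and 64 against 0 and 3, and the ratio was 6.72 (2.25 to 33). Rpl18 had 172 and 119 control counts against 5 and 1. Their groups did not overlap, and none of the 4 passed the adjusted threshold, with adjusted p from 0.0683 to 0.121 by edgeR with Benjamini-Hochberg adjustment. Rpl30 passed it with limma-voom (adjusted p = 0.024) and, by edgeR, without control replicate 2 (adjusted p = 0.039), and Rpl21 by edgeR without spermidine replicate 2 (adjusted p = 0.0457).

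Other genes with several rows had few counts and groups that overlapped. Rpl6, a large subunit protein, had 42 and 37 control counts, 15 in spermidine replicate 1 and 2 in spermidine replicate 2, and Rpl11, a large subunit protein known for binding Mdm2, had 106 and 76, then 11 and 3. Rps27 had 77 and 64, then 13 and 3. In each, spermidine replicate 1 was higher in CPM than spermidine replicate 2, unlike 51 of the 61 tested genes. The counts of Rpl6, Rpl11 and Rps27 lie on 345, 376 and 229 own bases. Receptor genes had 3.18 counts per kb of own bases in spermidine replicate 1, where Rpl6, Rpl11 and Rps27 had 15, 11 and 13 counts. What the own bases of these genes represent was not tested. None was called.

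Rps27rt, a copy of Rps27 with 374 own bases on chromosome 9, was the tested gene with the largest fitted rise and the only one whose groups did not overlap upwards. It had 49.1 and 19.7 CPM in controls and 181 and 76.2 CPM in spermidine, from 339, 136, 158 and 107 counts. The value in spermidine replicate 1 was above the other 3, and spermidine replicate 2 was nearer to control replicate 1. The log2 fold change was 1.88 ± 0.69 (adjusted p = 0.0721, edgeR, Benjamini-Hochberg), and across 16 alternatives it ran from 1.15 to 2.79 with adjusted p from 0.00249 to 0.522. Rpl32l, a copy that matched Rpl32 at 97.5% over 398 bases, had 6.52 and 3.33 CPM in controls and 1.14 and 12.1 in spermidine, the latter on both sides of the controls.

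Among paralogs, the tissue-restricted members had counts at or near 0. Rpl3l, the muscle counterpart of Rpl3, had 1 count in all over 1622 own bases, Rpl10l, the male germ cell counterpart of the X-linked Rpl10, had 2 counts in all over 1023, and Rpl39l, another male germ cell paralog, had none over 333. Rpl3l and Rpl39l have 4 and 2 rows, and their low counts cannot be read as absence. The core gene Rpl29, also with 4 rows, had 2 and 7 control counts and 0 in both spermidine libraries over 784 own bases. A count of 0 allows up to 0.435 CPM in control replicate 1, 0.434 in control replicate 2, 3.42 in spermidine replicate 1 and 2.13 in spermidine replicate 2. For genes with several rows this bounds the counts on own bases and not the level of the gene. Rpl10 had 3864 and 2336 CPM in controls and 517 and 1760 in spermidine, with groups that did not overlap and a value of -1.44 ± 0.72 (adjusted p = 0.174, edgeR, Benjamini-Hochberg). Rpl39 had 877 and 648 CPM in controls and 273 and 829 in spermidine.

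Rpl36a, on the X chromosome, and Rpl36al matched at 87.7% over 332 bases. Rpl36a had 709 and 672 CPM in controls and 343 and 870 in spermidine, and Rpl36al 421 and 597 in controls and 207 and 384 in spermidine, so that only the groups of Rpl36al did not overlap. Their fitted values were -0.18 ± 0.59 and -0.78 ± 0.55, and neither was called. Rpl7l1 had 660 and 558 CPM in controls and 140 and 328 in spermidine, with -1.37 ± 0.58 (adjusted p = 0.114), and Rpl7 had 4128 and 3448 against 1164 and 2654, with -0.99 ± 0.65 (adjusted p = 0.29), both by edgeR with Benjamini-Hochberg adjustment. Rpl22, Rpl22l1, Rps4x, Rps27l, Rps27a and Rplp2 had too few counts to be compared, and all of these but Rps27l had under 300 own bases.

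Genes that build ribosomes were read beside the proteins they assemble. A list of 101 ribosome biogenesis genes and regulators held 65 tested genes, of which 19 were lower (29.2%) and 1 higher (1.54%), against the background of 3.99% lower and 24.8% higher. Its tested genes had a median of -1.34 (log2 fold change), against 0.23 for all tested genes, and both spermidine libraries lay below both controls for 56 of 65 (86.2%), against 29.6%. These backgrounds are not matched for level. Over the 1617 genes with a mean of at least 100 CPM, the median log2 difference from controls was -1.38 in spermidine replicate 1 and -0.57 in spermidine replicate 2. A background at the level of the listed genes was not tested. Assembly factors held 16 of the 19 falls among 45 tested. The difference between this list and the ribosomal proteins was not tested. The falls numbered 5 of 52 tested genes at equal depth without AY036118, and 5 of 65 with the replicate number as a block. Over all genes, 811 of 4085 and 1775 of 7836 were called in either direction in those fits. The number of falls also changed with the library left out.

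Ncl, which encodes the nucleolar protein nucleolin, had 1936 and 1512 control counts against 21 and 82, a log2 fold change of -2.56 ± 0.61 (adjusted p = 0.0137). Heatr1, a factor of early small subunit assembly, had 7482 and 5479 against 149 and 220 (-2.52 ± 0.54, adjusted p = 0.00897), and Utp15, another, 2098 and 1901 against 45 and 89 (-2.33 ± 0.54, adjusted p = 0.0115). Larp1, the repressor that binds terminal oligopyrimidine mRNAs, had 1729 and 1356 against 62 and 33 (-2.29 ± 0.65, adjusted p = 0.0287). These are edgeR quasi-likelihood values with Benjamini-Hochberg adjustment, and both spermidine libraries were below both controls in each. Over 16 alternatives the directions held, with adjusted p from 0.000381 to 0.28 for Ncl and from 0.0111 to 0.278 for Larp1.

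The single rise was Mycn, a transcription factor of the Myc family, with 6 and 1 control counts against 12 and 341 (7.93 ± 1.43, adjusted p = 0.00652, edgeR, Benjamini-Hochberg), nearly all of it in spermidine replicate 2. Npm1, the nucleolar chaperone nucleophosmin, had -1.48 ± 0.61 (adjusted p = 0.102), and Fbl, the methylase fibrillarin, -1.82 ± 0.71 (adjusted p = 0.0885), both by that edgeR test with Benjamini-Hochberg adjustment. Among cytosolic ribosome genes with other names, Rack1, a scaffold on the small subunit, had -0.57 ± 0.77 and Fau, a fusion with a small subunit protein, -0.88 ± 0.91, and neither was called.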

How the data were processed

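Poly(A) RNA of 2 control and 2 spermidine libraries was sequenced as paired-end Illumina reads, per the labels' protocols. The submitters' processing notes name mm9, HISAT2 and DESeq2 without roles, and neither the counting program nor its strand setting is stated there or in the labels. The authors deposited whole-number counts for 106519 RefSeq transcript rows, not normalised. Rows were matched to symbols by accession (80.8%), and 88.6% of matched rows lie inside their gene's GRCm38 span, so positions are given as GRCm38. Rows of a gene were summed. Own bases are exon bases covered by no other row on either strand. Genes were kept with filterByExpr (count minimum 10, total minimum 15), scaled by TMM (factors 0.961, 0.973, 1.30 and 0.824 for control 1, control 2, spermidine 1 and spermidine 2) and tested with edgeR 4.0.16 in R 4.3.3 (current quasi-likelihood fit, group as only term, 2 residual degrees of freedom). The procedure was run on simulated data with the same dispersion in every library, which does not cover groups that differ in dispersion. Alternatives used limma 3.58.1 and DESeq2 1.42.0, other scalings and filters, single rows, own-base minima and left-out libraries. Equal-depth and legacy edgeR fits, and all alternatives for the biogenesis list, were chosen after seeing the data. Chi-square over degrees of freedom was 40.8 between controls and 32.2 between spermidine libraries, so neither pair is a duplicate. The members, lists and tests were chosen with earlier results of these data known. Named genes are the 8 largest falls and the rises among tested members (4 were above 0), called members, the 6 highest levels per kb, and fixed paralogs and stalk genes. In the biogenesis list they are the 4 largest calls in each direction and 7 fixed genes, 1 of which is not reported here. Rps13, Rpl11, Rpl15 and genes named for their own bases were chosen after their values were seen. Promoters come from RefSeq and transcript identity from local alignment of GENCODE M21 sequences.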

Additional observations from a re-analysis of the deposited data

How the results depend on the processing

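The scalings (RLE, upper-quartile, library totals), the legacy edgeR test, single transcript rows and the minimum of 300 own bases kept the count of ribosomal protein genes called lower at 3 or 4 and called higher at 0. With no low-count filter the counts were 0 lower among ribosomal proteins, 0 over all genes (4255 at an unadjusted p under 0.05) and 0 lower and 0 higher in the biogenesis list. With at least 1 CPM in all libraries they were 0, 275, 2 and 0, and at equal depth without AY036118 they were 0 lower, 811 over all genes and 5 lower in the biogenesis list. DESeq2 and the fit on protein-coding genes without AY036118 each called 1 ribosomal protein gene higher, Rps27rt. Single rows gave 2 higher in the biogenesis list. With the replicate block 1 ribosomal protein gene was lower and 5 biogenesis genes were. Deviations of same-numbered libraries correlated at -0.0299 across tested genes, so no pairing by number was seen. With 2 libraries per group that value cannot exclude pairing. Leaving out 1 library gave 0 to 49 ribosomal protein genes lower, 0 to 1 higher, 0 to 3725 genes called in all, and 0 to 40 biogenesis genes lower and 0 to 2 higher; the lone library is then assumed to vary like the other group. The cause of these changes was not tested.

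Signs were compared for the named genes only, and they turned for some with values near 0. At equal depth without AY036118 the median over all 55 tested members was 0.02. Of 21 named genes fitted there 4 turned, with Rpl36a at 0.41, Rpl39 at 0.11, Rplp0 at 0.05 and Rps26 at 0.17. With at least 1 CPM in all libraries Rpl36a was 0.16, Rps26 0.01 and Rps27 0.02. With limma-voom Rpl32l was -0.10, Rpl6 -0.01 and Rpsa -0.08, with no filter Rpl6 was -0.07 and Rpsa -0.21, and with the replicate block Rpsa was -0.08. Over left-out libraries Rpl32l ran from -2.04 to 1.29, Rpl36a from -0.95 to 0.33, Rpl39 from -1.43 to 0.12, Rpl6 from -1.99 to 1.64, Rplp0 from -1.63 to 0.14, Rps26 from -1.72 to 0.40, Rps27 from -2.24 to 0.60 and Rpsa from -0.86 to 0.75. The spermidine libraries are the shallower ones, and a count of 0 there allows up to 3.42 and 2.13 CPM.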
